A study of Homo sapiens with 12 samples.

Results

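The genes described here are the ZNF genes, named ZNF plus a number, whose transcripts were measurable in 3 human gastric cancer cell lines. The members were chosen by a readout of these arrays: a symbol entered if its mean log2 value over all 12 arrays was 5 or more, so a high mean level is a condition of entry and not a finding. Of 471 annotated ZNF symbols, 281 met this level and 190 lay under it. The 12 arrays were 1 each for the lines SNU601, MKN1 and AGS with JK139, JK136, Rhosin or DMSO. Rhosin is a small-molecule inhibitor that binds the GTPase RhoA, DMSO is the solvent control, and JK139 and JK136 are given in the labels as code names only. The lines are established cultures of stomach cancer cells, and the labels used here state neither doses nor exposure times. The labels name no separate cultures within a combination of line and compound. The 4 arrays of a line therefore stand for its 4 treatments, and the 3 lines stand as replicates of a treatment, so that p-values measure only the spread between these arrays.

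ZNF is a naming class, not 1 family by function. Most members code for C2H2 zinc finger proteins, in which short finger modules each hold a zinc ion and read a few bases of DNA. Many of these also carry a KRAB domain, which recruits the corepressor TRIM28 (KAP1) and, through it, histone methylation that silences the bound DNA. KRAB zinc finger genes multiplied by tandem duplication, lie in clusters on chromosome 19, and are best known for holding retrotransposons silent. Others bind RNA, act in ribosome assembly or at the spindle, or carry no C2H2 finger at all. Because neighbouring copies can be nearly identical, probes of such genes may share signal, and this was not tested.

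All arrays were brought to a common distribution by the submitters, with array medians between 4.14 and 4.20. Of the 6 epithelial markers measured, KRT18 and KRT19 were at 8.27 or more in every line. EPCAM averaged 10.2 in SNU601, 6.49 in MKN1 and 10.0 in AGS, and ESRP1, a splicing regulator of epithelial cells, averaged 8.86, 4.11 and 8.95 in the same order. The mesenchymal genes VIM, ZEB1 and FN1 were high in MKN1 (8.26, 6.05 and 9.59) and between 3.29 and 4.38 in SNU601 and AGS. The gastric genes GATA4 and SOX2 were at 4.38 and 4.24 in MKN1 and at 6.44 or more in the other lines. TFF2 and CLDN18 were at 6.41 and 9.52 in SNU601, at 4.08 and 3.76 in MKN1 and at 3.68 and 4.02 in AGS, so in these SNU601 stood apart. DCN and PECAM1, markers of fibroblasts and endothelium, stayed between 1.90 and 3.99. EPCAM, ESRP1, VIM, ZEB1, FN1, GATA4 and SOX2 thus set MKN1 apart, while KRT8 (6.16 to 6.55) and CLDN4 (5.07 to 5.47) differed little. The part of such differences in those of the ZNF genes was not tested.

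The median level of the members was 5.91 on the log2 scale, and 150 members lay between 5 and 6, 99 between 6 and 7, and 32 at 7 or more. The median member level was 5.94 in SNU601, 5.80 in MKN1 and 6.11 in AGS. Just inside the level of 5 stood ZNF446 at 5.00 and ZNF385A at 5.01, and just outside stood ZNF324B at 4.98 and ZNF701 at 4.99. Since the mean over all lines decided entry, 66 members averaged under 5 in at least 1 line: 23 in SNU601, 30 in MKN1 and 15 in AGS. Members that entered through 1 or 2 high lines had to differ between lines, which bears on every count of line differences over the members. All 281 members passed the filter on low values used for the tests (a mean of 4.61).

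The highest member was ZNF207, which codes for BuGZ, a protein of kinetochores and spindle assembly. It had 8.96 to 9.10 in SNU601, 8.84 to 8.95 in MKN1 and 8.94 to 9.03 in AGS over the 4 arrays of a line. ZNF146, a protein made almost wholly of fingers, averaged 8.65 ± 0.06 in SNU601, 9.33 ± 0.15 in MKN1 and 8.73 ± 0.14 in AGS (SD over the 4 arrays of a line, as in all line means below). Next came ZNF121 with an overall mean of 8.62, ZNF460 with 8.39, ZNF644 with 8.05 and ZNF451 with 8.02. ZNF644 binds the H3K9 methyltransferases of the G9a class, and ZNF451 is a SUMO ligase. The 6 members of smallest range over the 12 arrays were ZNF207 and ZNF747 (0.26 each), ZNF609 (0.27), ZNF668 (0.30) and ZNF384 and ZNF280C (0.35 each). ZNF609, which works with the Integrator complex, averaged 6.57 ± 0.03 in SNU601, 6.49 ± 0.09 in MKN1 and 6.58 ± 0.05 in AGS, and the arrays of the 3 lines overlapped.

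Cell line held most of the variation of the members. In the median member 83.2% of the sum of squares lay between lines, 4.60% between treatments and 11.0% in the residual, against 82.0%, 5.30% and 10.9% over all genes tested. The genes tested include some with a mean under 5. Over the 7723 genes with a mean of 5 or more the shares were 83.9%, 4.80% and 9.73%. The lowest and highest line means of a member differed by a median of 0.69, against 0.59 over all genes tested. The difference reached 1 (2-fold) in 85 members (30.2%), against 24.7% of all genes tested, and 2 (4-fold) in 18 (6.41%), against 6.72%. Over the genes with a mean of 5 or more the median was 0.62, and the shares were 25.2% and 6.59%. Among the 215 members with every line mean at 5 or more the share past 2-fold was 19.5%. The matching share over all genes with every line mean at that level was not computed.

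The promoters of 4 members on chromosome 19 are shown because their transcripts gave some of the widest line differences among the members there: ZNF85 and ZNF90, 2 places apart in the order of members, were low in AGS, and ZNF544 and ZNF814 were low in MKN1. They were chosen after the values were seen. ZNF841 and ZNF551, with SNU601 minus AGS at -3.52 and -3.17, differed more than ZNF85 and ZNF90 and are not shown. ZNF626, which lies between ZNF90 and ZNF85 and was also low in AGS, is not shown either. A link between promoter sequence and level was not tested. Each run is the 200 bases before the first listed start of transcription in RefSeq (GRCh38.p14), written 5′ to 3′ on the gene's own strand, with each CG dinucleotide in capitals. The windows are chr19:20923051-20923250 on the plus strand (ZNF85), chr19:20077800-20077999 on the plus strand (ZNF90), chr19:58228714-58228913 on the plus strand (ZNF544) and chr19:57889038-57889237 on the minus strand (ZNF814).
ZNF85: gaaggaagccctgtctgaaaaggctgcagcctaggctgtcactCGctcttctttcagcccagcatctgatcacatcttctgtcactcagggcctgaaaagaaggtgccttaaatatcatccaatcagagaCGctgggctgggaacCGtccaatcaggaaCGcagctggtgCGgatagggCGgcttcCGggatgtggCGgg
ZNF90: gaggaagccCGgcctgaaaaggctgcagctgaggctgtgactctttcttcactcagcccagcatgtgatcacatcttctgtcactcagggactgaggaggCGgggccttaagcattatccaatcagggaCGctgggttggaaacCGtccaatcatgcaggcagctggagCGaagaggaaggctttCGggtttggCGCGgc
ZNF544: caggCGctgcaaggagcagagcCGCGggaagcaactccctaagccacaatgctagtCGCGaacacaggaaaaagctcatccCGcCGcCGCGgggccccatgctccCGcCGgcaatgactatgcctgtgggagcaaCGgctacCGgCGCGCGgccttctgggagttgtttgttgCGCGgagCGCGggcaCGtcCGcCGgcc
ZNF814: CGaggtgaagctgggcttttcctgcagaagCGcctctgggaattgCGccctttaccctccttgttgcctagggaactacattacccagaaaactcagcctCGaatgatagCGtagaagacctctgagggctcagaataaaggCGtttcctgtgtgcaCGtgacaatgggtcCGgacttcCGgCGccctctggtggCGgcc
ZNF85 and ZNF90 matched at 166 of 202 aligned positions (82.2%), while the other 5 pairs of these windows matched at 49.8% to 53.7%. The windows of 200 bases held 8 CG in ZNF85, 8 in ZNF90, 23 in ZNF544 and 11 in ZNF814. Over 300 bases, the length used for the medians below, the counts were 9, 9, 31 and 14. CG reads the same on both strands, and over the whole 300-base promoters of the RefSeq table at least 1 CG was found in 95.8% of 27305 genes, with a median of 14. Of the 281 members 242 were matched to that table, and their median was 22 CG, against 26 over the matched genes tested. The median was 21.5 in the 16 matched members whose line means differed by 2 or more and 22.5 in the 172 that differed by less than 1. Methylation was not measured on these arrays.

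The comparison of SNU601 with MKN1 asks which ZNF genes differ between these lines. Of the 281 members, 188 (66.9%) passed limma's test at an adjusted p of 0.05 over all genes, against 63.4% of all genes tested. SNU601 was higher in 106 members (37.7%, against 32.3% of all genes tested) and lower in 82 (29.2%, against 31.1%). At 2-fold or more, 31 were higher (11.0%, against 7.72%) and 24 lower (8.54%, against 8.33%). The median log2 difference of the members was 0.06, against 0.02 over all genes tested. The p-values rest on 4 arrays a line and not on separate cultures, so they do not cover the spread between cultures of 1 line.

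The fitted difference was widest for ZNF544, transcript cluster 16866232. Its log2 values, in the order JK139, JK136, Rhosin and DMSO that is kept for every line below, were 7.29, 7.43, 7.49 and 7.53 in SNU601 and 2.00, 3.63, 3.46 and 1.80 in MKN1. AGS had 7.58, 7.47, 7.10 and 7.58, so MKN1 alone was low, with its highest array at 3.63. SNU601 minus MKN1 was 4.71 ± 0.32 (SE, limma adjusted p = 8.88e-08). All MKN1 values lay under the filter level of 4.61 and are not shown to be above background. With MKN1 set to that level, SNU601 minus MKN1 would be 2.83, which serves as a lower bound. Of the genes named for a line comparison, 17 had a line mean under this level, and their fitted differences rest on such low values.

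ZNF600 and ZNF320, near neighbours on chromosome 19, were also lowest in MKN1. ZNF600 had 6.97, 6.89, 6.64 and 6.85 in SNU601, 3.92, 4.51, 4.06 and 4.18 in MKN1 and 6.33, 6.39, 6.21 and 6.37 in AGS. ZNF320 had 8.07, 7.92, 7.77 and 7.92 in SNU601, 5.85, 5.28, 5.65 and 5.24 in MKN1 and 7.47, 7.41, 7.22 and 7.38 in AGS. The 3 lines did not overlap in either gene, with SNU601 highest and MKN1 lowest. The log2 differences of SNU601 and MKN1 were 2.67 ± 0.10 for ZNF600 and 2.41 ± 0.11 for ZNF320 (SE, limma adjusted p = 5.63e-10 and 3.18e-09). ZNF836 on chromosome 19 was higher in SNU601 by 1.87 ± 0.14, ZNF165, a cancer-testis antigen gene on chromosome 6, by 1.93 ± 0.09, and ZNF597, an imprinted gene on chromosome 16, by 1.84 ± 0.09. With MKN1 set to the filter level, ZNF600 would differ by 2.23, ZNF165 by 1.83 and ZNF597 by 1.59.

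By fitted difference, the genes lower in SNU601 than in MKN1 were led by ZNF850 on chromosome 19 and ZNF26 on chromosome 12. ZNF850 had 5.63, 5.73, 6.07 and 6.31 in SNU601, 8.35, 8.48, 8.36 and 8.25 in MKN1 and 9.08, 8.69, 8.59 and 8.78 in AGS. ZNF26 had 3.59, 3.98, 3.59 and 3.50 in SNU601, 5.78, 5.84, 5.81 and 5.97 in MKN1 and 6.14, 5.92, 6.05 and 6.09 in AGS. SNU601 alone was low in both, by 2.43 ± 0.15 and 2.18 ± 0.11 against MKN1 (SE, limma adjusted p = 4.05e-08 and 6e-09). ZNF420, which represses p53-driven apoptosis genes, differed by -2.13 ± 0.13, ZNF551 by -2.03 ± 0.14, ZNF134 by -1.85 ± 0.11 and ZNF75A by -1.82 ± 0.18. With SNU601 set to the filter level, ZNF26 would differ by -1.24, ZNF420 by -1.75, ZNF551 by -1.36, ZNF134 by -1.77 and ZNF75A by -1.60.

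The comparison of SNU601 with AGS gave fewer calls. It called 157 members (55.9%), against 52.7% of all genes tested. SNU601 was higher in 65 (23.1%, against 29.9% of all genes tested) and lower in 92 (32.7%, against 22.8%). At 2-fold or more, 10 were higher (3.56%, against 3.67%) and 26 lower (9.25%, against 4.67%). The median log2 difference was -0.04 over the members and 0.05 over all genes tested.

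ZNF841 was the member that differed most between SNU601 and AGS. It had 5.55, 5.24, 5.63 and 5.59 in SNU601, 6.85, 6.97, 6.89 and 7.09 in MKN1 and 9.09, 9.14, 8.94 and 8.91 in AGS. The lines formed 3 separate steps, and SNU601 minus AGS was -3.52 ± 0.11 (SE, limma adjusted p = 2.55e-10). ZNF551, whose zinc finger protein is little described, had 3.65, 4.17, 3.78 and 4.15 in SNU601, 6.12, 5.95, 5.90 and 5.89 in MKN1 and 7.40, 6.95, 6.87 and 7.18 in AGS. Its log2 difference was -3.17 ± 0.14, and ZNF134, 2 members away on chromosome 19, differed by -2.96 ± 0.11. ZNF850 differed by -2.85 ± 0.15, ZNF75A by -2.51 ± 0.18 and ZNF26 by -2.38 ± 0.11. With SNU601 set to the filter level, ZNF551 would differ by -2.49, ZNF134 by -2.89, ZNF75A by -2.28 and ZNF26 by -1.44.

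The highest log2 difference between SNU601 and AGS belonged to ZNF185, on the X chromosome. It codes for a LIM-domain protein of the actin cytoskeleton and not for a C2H2 factor. It had 7.01, 7.16, 7.76 and 6.83 in SNU601, 5.87, 5.60, 5.72 and 5.81 in MKN1 and 4.46, 4.73, 4.70 and 4.41 in AGS. The lines did not overlap, and SNU601 minus AGS was 2.61 ± 0.14 (SE, limma adjusted p = 4.38e-08). ZNF559 was higher by 2.13 ± 0.12, ZNF90 by 1.78 ± 0.10, ZNF626 by 1.60 ± 0.18, ZNF85 by 1.43 ± 0.08 and ZNF451 by 1.21 ± 0.08. For ZNF451 the array has a second transcript cluster that averaged 6.55 in SNU601, 6.20 in MKN1 and 6.56 in AGS, so the difference was seen in 1 of its 2 clusters.

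The comparison of MKN1 with AGS gave the most calls and the most one-sided ones. It called 197 members (70.1%), against 66.3% of all genes tested. MKN1 was higher in 72 (25.6%, against 35.3% of all genes tested) and lower in 125 (44.5%, against 31.0%). At 2-fold or more, 13 were higher (4.63%, against 8.24%) and 36 lower (12.8%, against 7.95%). The median log2 difference was -0.18 over the members and 0.02 over all genes tested.

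**Figure D1:**
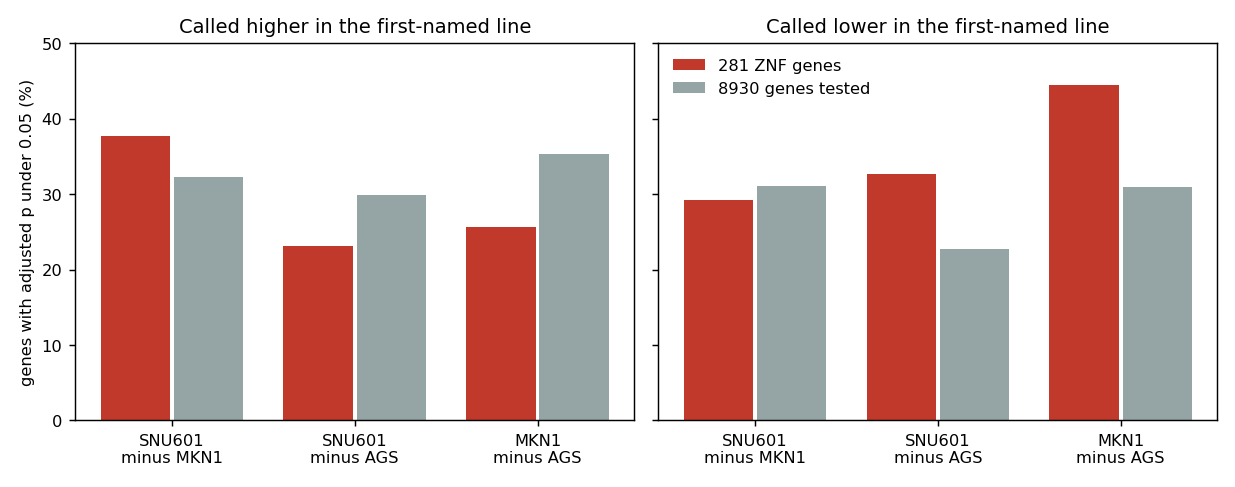
Share of genes called at a limma adjusted p under 0.05 (vertical axis, percent), higher (left panel) or lower (right panel) in the first-named line of each comparison. Red bars stand for the 281 ZNF genes and grey bars for the 8930 genes tested; the widest gap is the 44.5% of ZNF genes lower in MKN1 than in AGS, against 31.0% of all genes tested.

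ZNF544 again had the widest fitted difference, with MKN1 minus AGS at -4.71 ± 0.32 (SE, limma adjusted p = 8.86e-08), or -2.82 with MKN1 set to the filter level. ZNF814, transcript cluster 16876026, had 6.37, 6.27, 6.45 and 6.43 in SNU601, 4.92, 4.38, 4.41 and 4.67 in MKN1 and 7.95, 7.80, 7.49 and 7.96 in AGS. Its 3 lines did not overlap, and MKN1 minus AGS was -3.21 ± 0.11 (SE, limma adjusted p = 1.8e-10). ZNF518A on chromosome 10 differed by -2.37 ± 0.10, ZNF600 by -2.16 ± 0.10, ZNF836 by -2.10 ± 0.14 and ZNF841 by -2.07 ± 0.11. With MKN1 set to the filter level, ZNF814 would differ by -3.20 and ZNF600 by -1.72.

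Higher in MKN1 than in AGS were ZNF559, ZNF85 and ZNF90, all on chromosome 19. ZNF559 had 5.62, 5.65, 5.53 and 5.63 in SNU601, 5.99, 6.23, 6.13 and 6.14 in MKN1 and 3.47, 3.90, 2.96 and 3.57 in AGS. ZNF85 had 5.60, 5.54, 5.60 and 5.66 in SNU601, 6.65, 6.72, 6.69 and 6.64 in MKN1 and 4.20, 4.13 and 4.36 with JK139, JK136 and DMSO in AGS, where the Rhosin array was lower still. AGS was the low line in both genes, and MKN1 minus AGS was 2.65 ± 0.12 for ZNF559 and 2.50 ± 0.08 for ZNF85 (SE, limma adjusted p = 3.76e-09 and 1.71e-10). ZNF90, the gene whose promoter resembles that of ZNF85, had 6.18, 6.02, 6.08 and 6.28 in SNU601, 6.32, 6.45, 6.72 and 6.33 in MKN1 and 4.26, 4.14, 4.59 and 4.44 in AGS, a log2 difference of 2.10 ± 0.10 between MKN1 and AGS. ZNF280B on chromosome 22 was higher in MKN1 by 1.95 ± 0.13, ZNF718 on chromosome 4 by 1.70 ± 0.13, and ZNF385A, which codes for an RNA-binding regulator of p53, by 1.51 ± 0.14. With AGS set to the filter level, ZNF559 would be higher in MKN1 by 1.52, ZNF85 by 2.07, ZNF90 by 1.85, ZNF280B by 1.66 and ZNF385A by 1.15. ZNF559 would then no longer lead, so its rank rests on AGS values under that level.

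**Figure D2:**
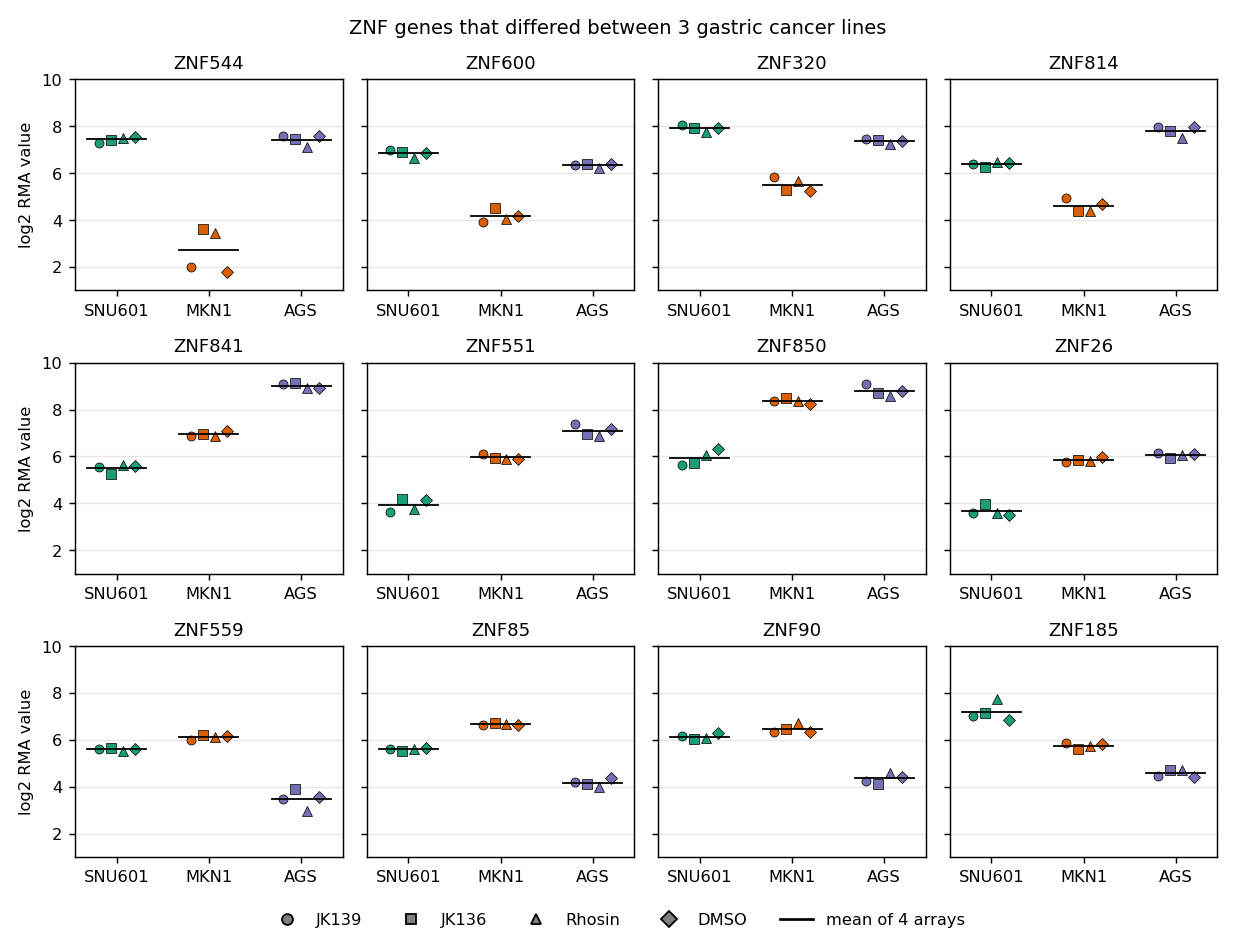
Log2 RMA values (vertical axis) of 12 ZNF genes in SNU601, MKN1 and AGS (horizontal axis); each point is 1 array, its shape gives the treatment, and the bar is the mean of the line's 4 arrays. ZNF544, ZNF600 and ZNF320 are lowest in MKN1, ZNF841, ZNF551, ZNF850 and ZNF26 lowest in SNU601, and ZNF559, ZNF85, ZNF90 and ZNF185 lowest in AGS.

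The members were then sorted by the line in which they stood apart, that is, differed from both other lines in 1 direction at a limma adjusted p under 0.05. The largest class was lowest in MKN1, with 82 members (29.2%, against 21.1% of all genes tested). Of these, 48 lie on chromosome 19, which holds 121 of the 281 members. Highest in MKN1 were 44 (15.7%, against 22.9%). Lowest in SNU601 were 47 (16.7%, against 11.3%) and highest in SNU601 were 34 (12.1%, against 14.5%). Highest in AGS were 58 (20.6%, against 13.1%) and lowest in AGS were 32 (11.4%, against 16.9%). In the order given, chromosome 19 held 21 of the 44, 18 of the 47, 14 of the 34, 29 of the 58 and 8 of the 32. The matching shares on chromosome 19 over all genes tested were not computed. A gene can stand in 2 classes, as ZNF841 does, which was highest in AGS and lowest in SNU601.

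Members at least 2-fold from the nearer of the other lines numbered 19 for lowest in MKN1, 14 for lowest in SNU601, 9 for lowest in AGS, 9 for highest in AGS, 3 for highest in MKN1 and 1 for highest in SNU601. The same counts were not made over all genes tested, so they do not show a trait of the ZNF genes. The following genes were chosen after their values were seen, as further examples of these classes. Lowest in MKN1 by this margin were also ZNF417 and ZNF587, paired repressors of endogenous retroviruses. ZNF417 averaged 7.27 ± 0.17 in SNU601, 5.79 ± 0.26 in MKN1 and 7.35 ± 0.27 in AGS. ZNF587 averaged 6.81 in SNU601, 5.25 in MKN1 and 6.61 in AGS. The 9 highest in AGS included the neighbours ZNF614, ZNF432 and ZNF841, and ZNF117 on chromosome 7, which averaged 5.16 ± 0.46 in SNU601, 5.22 ± 0.29 in MKN1 and 6.74 ± 0.28 in AGS. The 9 lowest in AGS included ZNF24, a SCAN-domain repressor, and the pseudogene ZNF271P, both on chromosome 18. ZNF24 averaged 7.20 ± 0.09 in SNU601, 7.32 ± 0.11 in MKN1 and 6.08 ± 0.24 in AGS, and ZNF271P averaged 6.70 ± 0.09, 6.78 ± 0.15 and 5.49 ± 0.11 in the same order. The 1 gene highest in SNU601 by this margin was ZNF185.

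Chromosome 19 held 121 of the 281 members, and chromosomes 7 and 16 held 22 and 20. Ordered along chromosome 19 in the RefSeq annotation, the members fell into stretches of like behaviour. The boundary used here was placed after the values were seen, so the stretches are described without a test. In the 68 members from ZNF780A to ZNF446, MKN1 was below AGS in 64, of which 55 were called lower, and 1 member was called higher. The median log2 difference of MKN1 and AGS was -0.93 there. In the 53 members from ZNF77 to ZNF780B it was 0.30, with 28 called higher and 11 called lower.

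The other genes of the same stretches leaned the same way by less. From ZNF780A to ZNF446, the 224 other genes tested had a median MKN1 minus AGS of -0.34, with 130 called lower and 24 called higher. From ZNF77 to ZNF780B, the 366 other genes tested had a median of 0.14, with 157 called higher and 67 called lower. SNU601 minus MKN1 mirrored this, since both comparisons share the MKN1 arrays: its median over the 68 members was 0.64, with 50 called higher and 8 called lower. SNU601 minus AGS, which leaves MKN1 out, had a median of -0.04 in each of the 2 stretches. DNA copy number was not measured.

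**Figure D3:**
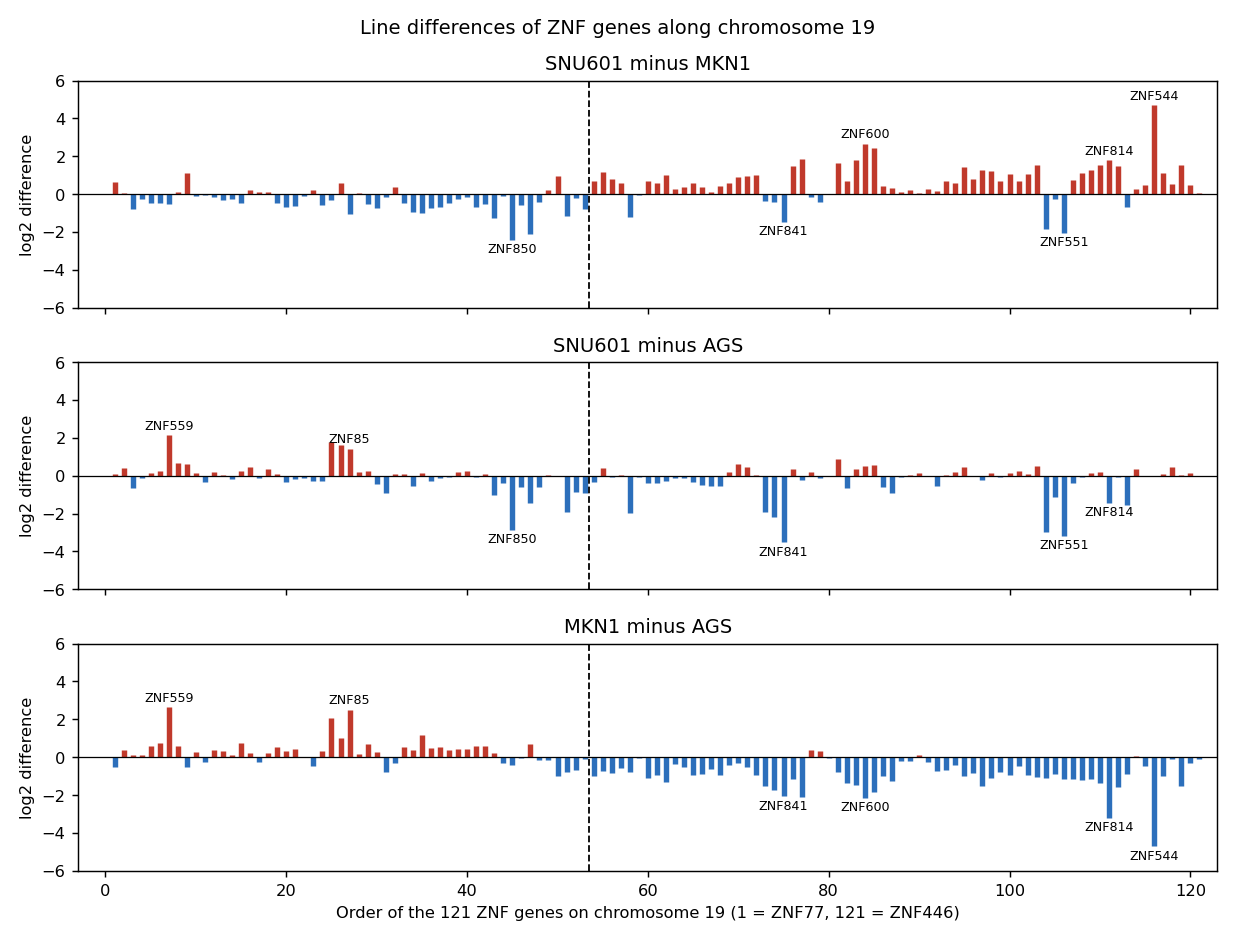
Log2 differences (vertical axis) of SNU601 minus MKN1, SNU601 minus AGS and MKN1 minus AGS for the 121 ZNF genes of chromosome 19 in gene order (horizontal axis, not to scale in distance); red bars are positive and blue bars negative. Right of the dashed line, which marks ZNF780A, 64 of 68 bars of MKN1 minus AGS are below 0.

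Within the second stretch several runs of neighbours moved together. The ends of the runs named here and below were also placed after the values were seen. A shared direction within a run thus follows in part from where it was cut. The 10 members from ZNF223 to ZNF180, among them ZNF224, were all lower in MKN1 than in AGS, by log2 differences between -1.30 and -0.36, and 9 were called. The 5 members from ZNF808 to ZNF320 were all called lower, with a median of -1.45. ZNF808 is needed in human pancreas development, where it silences retroviral elements, and it averaged 7.55 ± 0.08 in SNU601, 5.91 ± 0.13 in MKN1 and 6.68 ± 0.08 in AGS. The 9 members from ZNF264 to ZNF749 were all called lower, with a median of -0.95, and so were the 6 from ZNF776 to ZNF417, with a median of -1.27.

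In 2 further runs MKN1 was again lower than AGS, and the SNU601 means were lower still. ZNF614, ZNF432 and ZNF841 followed each other, with MKN1 minus AGS at -1.52, -1.74 and -2.07 and SNU601 minus AGS at -1.90, -2.18 and -3.52. ZNF134, ZNF211 and ZNF551 had MKN1 minus AGS at -1.12, -0.87 and -1.14 and SNU601 minus AGS at -2.96, -1.15 and -3.17. Between SNU601 and MKN1, ZNF211 differed by -0.28 and was not called (limma adjusted p = 0.0986). Against this direction, ZNF766 and ZNF880 lay among genes lower in MKN1, and MKN1 minus AGS was 0.39 and 0.30 in them. In the first stretch ZNF90, ZNF626 and ZNF85 were called higher in both SNU601 and MKN1 than in AGS. The 8 members from ZNF850 to ZNF607, also in the first stretch, were mixed, with 4 called lower in MKN1 than in AGS and 1 called higher. Over the 81 pairs of neighbouring members with no other tested gene between them, both were called for MKN1 minus AGS in 53 pairs, and the direction was the same in 48. The counts were 23 and 19 for SNU601 minus AGS, and 47 and 39 for SNU601 minus MKN1. The direction was thus the same in 90.6%, 82.6% and 83.0% of the neighbouring pairs with both called, against 57.1%, 52.2% and 51.4% of all pairs of called members on the chromosome. Neighbours can share probe sequence, so these pairs are not independent. The shares over all pairs pool both stretches, which leaned to opposite sides in MKN1 minus AGS and in SNU601 minus MKN1. Members of 1 stretch thus often share a direction whether or not they are neighbours. Shares within a stretch were not computed, so the gap cannot be put down to being neighbours.

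Known KRAB repressors were followed through a list of 16 genes, of which 10 were members. SNU601 minus MKN1 was called in 8 of the 10 (63.4% of all genes tested), SNU601 minus AGS in 4 (52.7%) and MKN1 minus AGS in 6 (66.3%). ZNF350 (ZBRK1), a partner of BRCA1 that represses GADD45A, had 5.80, 5.93, 5.73 and 5.76 in SNU601, 4.70, 5.05, 4.73 and 4.75 in MKN1 and 5.76, 5.95, 5.59 and 5.75 in AGS. MKN1 alone was low, by -0.96 ± 0.07 against AGS (SE, limma adjusted p = 2.65e-07). ZNF224, a repressor of the aldolase A gene, averaged 6.55 ± 0.06 in SNU601, 5.54 ± 0.33 in MKN1 and 6.84 ± 0.19 in AGS. A second transcript cluster of ZNF224 averaged 6.01 in SNU601, 4.18 in MKN1 and 4.50 in AGS, so both were lowest in MKN1 but they disagreed on the order of SNU601 and AGS. ZNF496, which binds the methyltransferase NSD1, averaged 5.72 ± 0.20 in SNU601, 5.48 ± 0.16 in MKN1 and 6.82 ± 0.18 in AGS. ZNF300 averaged 4.31 ± 0.17 in SNU601, 5.47 ± 0.17 in MKN1 and 5.54 ± 0.22 in AGS. ZNF445, a keeper of imprinted methylation, was lower in MKN1 than in AGS by -0.50 ± 0.12, while ZNF202, a repressor of lipid transport genes, had a difference of 0.02 ± 0.13 that was not called.

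Transcription factors without a KRAB domain were followed through a list of 24 genes, of which 17 were members. SNU601 minus MKN1 was called in 13 of the 17 (63.4% of all genes tested), SNU601 minus AGS in 11 (52.7%) and MKN1 minus AGS in 13 (66.3%). ZNF217, an oncogene amplified on chromosome 20 in several carcinomas, had 7.07, 6.98, 7.06 and 6.91 in SNU601, 8.58, 8.53, 8.19 and 8.31 in MKN1 and 7.28, 7.44, 7.66 and 7.47 in AGS. MKN1 was above both other lines, by 0.94 ± 0.11 against AGS (SE, limma adjusted p = 9.53e-06). ZNF462, a nuclear factor of neural development, averaged 5.63 ± 0.20 in SNU601, 6.97 ± 0.07 in MKN1 and 6.45 ± 0.24 in AGS. ZNF532, which joins ZNF592 and ZNF687 in a complex on chromatin, averaged 8.39 ± 0.11 in SNU601, 7.32 ± 0.09 in MKN1 and 7.80 ± 0.17 in AGS. ZNF367 averaged 5.66 ± 0.16 in SNU601, 6.71 ± 0.04 in MKN1 and 5.81 ± 0.12 in AGS.

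Proteins of RNA, ribosomes, splicing and mitosis formed a list of 13 genes, all of them members. SNU601 minus MKN1 was called in 5 (63.4% of all genes tested), SNU601 minus AGS in 6 (52.7%) and MKN1 minus AGS in 9 (66.3%). The median range of their line means was 0.27, against 0.78 for the KRAB repressors and 0.67 for the other transcription factors. The widest ranges were those of ZNF451 and of ZNF622, an assembly factor of the large ribosomal subunit, which averaged 6.65 ± 0.07 in SNU601, 7.06 ± 0.12 in MKN1 and 5.87 ± 0.22 in AGS. ZNF277, a partner of a protein of the small ribosomal subunit, averaged 5.74 ± 0.07 in SNU601, 6.47 ± 0.11 in MKN1 and 6.25 ± 0.07 in AGS. ZNF346, a binder of double-stranded RNA, averaged 6.29 ± 0.10 in SNU601, 6.99 ± 0.13 in MKN1 and 6.62 ± 0.29 in AGS.

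The corepressor machinery that KRAB proteins recruit was measured through 22 of 25 listed genes. At a limma adjusted p under 0.05, SNU601 was above MKN1 in 12 and below in 5, against 32.3% and 31.1% of all genes tested. SNU601 was above AGS in 12 and below in 4 (29.9% and 22.8% of all genes tested), and MKN1 was above AGS in 6 and below in 4 (35.3% and 31.0%). TRIM28, the corepressor bound by KRAB domains, averaged 9.07 ± 0.07 in SNU601, 8.44 ± 0.12 in MKN1 and 9.12 ± 0.10 in AGS. MKN1 was lower than AGS by -0.67 (limma adjusted p = 2.06e-05), and TRIM28 itself lies on chromosome 19. CBX5, which codes for the heterochromatin protein HP1 alpha, averaged 5.97 ± 0.03 in SNU601, 7.20 ± 0.13 in MKN1 and 6.10 ± 0.18 in AGS. SUV39H1, an H3K9 methyltransferase, averaged 5.88 ± 0.12 in SNU601, 6.46 ± 0.08 in MKN1 and 5.32 ± 0.15 in AGS.

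The comparisons of JK139, JK136 and Rhosin with DMSO ask which ZNF genes respond to the compounds. With limma's test 0 of the 281 members were called for JK139, JK136 or Rhosin, and the share over all genes tested was 0.0% in each. At an unadjusted p under 0.05 stood 7 members for JK139 (2.49%, against 2.44% of all genes tested), 20 for JK136 (7.12%, against 5.25%) and 18 for Rhosin (6.41%, against 6.27%). The median log2 difference of the members was 0.006 for JK139, -0.01 for JK136 and -0.03 for Rhosin. The median 95% interval of a member, unadjusted, reached 0.26 to either side of its difference, and differences beyond this also went uncalled. The mean of the 3 compounds against DMSO also called 0 members (0.0% of all genes tested), with 11 at an unadjusted p under 0.05 (3.91%, against 3.37%).

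The members named next had 1 direction in all 3 lines and the widest mean differences, and none passed the threshold. Such a shared direction was no more common in members than in all genes tested. It was found in 56 members for JK139 (19.9%, against 23.7% of all genes tested). For JK136 it was found in 71 (25.3%, against 26.6%) and for Rhosin in 72 (25.6%, against 26.3%). For JK139, ZNF107 on chromosome 7 had the largest log2 difference from DMSO of all genes tested. It had 7.03 with JK139 and 6.63 with DMSO in SNU601, 6.40 and 5.71 in MKN1, and 7.34 and 6.65 in AGS. JK139 was higher in each line, by a mean of 0.60 ± 0.11 (SE, limma unadjusted p = 0.000228, adjusted p = 0.9999). ZNF626 differed by 0.40 ± 0.21, ZNF557 by 0.31 ± 0.14 and ZNF611 by 0.31 ± 0.10. On the other side, ZNF593, a factor of ribosome assembly, had 4.80 with JK139 and 5.18 with DMSO in SNU601, 4.88 and 5.17 in MKN1, and 4.51 and 5.16 in AGS, a difference of -0.44 ± 0.12. ZNF341 differed by -0.28 ± 0.11, ZNF616 by -0.20 ± 0.13 and the pseudogene ZNF767P by -0.19 ± 0.10.

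For JK136, the widest difference was that of ZNF449 on the X chromosome. It had 4.93 with JK136 and 5.35 with DMSO in SNU601, 4.32 and 4.86 in MKN1, and 4.80 and 5.61 in AGS. JK136 was lower in each line, by a mean difference of -0.59 ± 0.14 (SE, limma unadjusted p = 0.00152, adjusted p = 0.801). ZNF417 differed by -0.37 ± 0.14, ZNF714 by -0.36 ± 0.09 and ZNF496 by -0.33 ± 0.11. ZNF75A differed by 0.49 ± 0.21, of which SNU601 had 1.06, MKN1 0.17 and AGS 0.25. ZNF880 had a near equal difference in each line (0.43 in SNU601, 0.49 in MKN1 and 0.42 in AGS), with a mean of 0.45 ± 0.16. ZNF420 differed by 0.43 ± 0.15 and ZNF225 by 0.39 ± 0.18, and the largest single value of ZNF225 was 0.95 in MKN1.

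For Rhosin, ZNF774 differed by -0.41 ± 0.12 (SE, limma unadjusted p = 0.00471, adjusted p = 0.563), from -0.48 in SNU601, -0.11 in MKN1 and -0.64 in AGS. ZNF417 differed by -0.36 ± 0.14, ZNF639, a gene of the amplified region of chromosome 3 in squamous cancers, by -0.33 ± 0.10, and ZNF383 by -0.32 ± 0.12. ZNF395, a gene induced by hypoxia, differed by 0.28 ± 0.10, ZNF16 by 0.26 ± 0.12, ZNF805 by 0.24 ± 0.09 and ZNF503, a developmental repressor, by 0.20 ± 0.13. ZNF417 appears for both JK136 and Rhosin, and these comparisons share the same 3 DMSO arrays. With all 3 compounds averaged, ZNF417 differed by -0.31 ± 0.11, ZNF449 by -0.29 ± 0.12, ZNF496 by -0.27 ± 0.09 and ZNF714 by -0.26 ± 0.07. On the other side were ZNF880 at 0.32 ± 0.13, ZNF107 at 0.31 ± 0.09, ZNF436 at 0.29 ± 0.12 and ZNF611 at 0.23 ± 0.08.

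**Figure D4:**
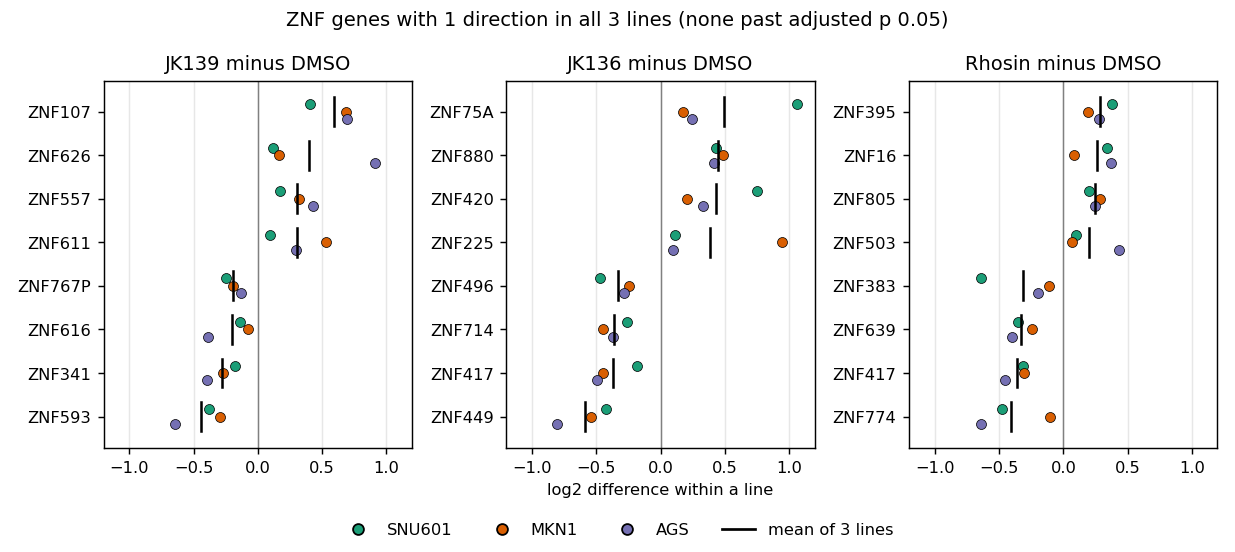
Log2 differences from DMSO within each line (horizontal axis) for the ZNF genes named for JK139, JK136 and Rhosin (vertical axis); points are the lines SNU601, MKN1 and AGS and the black bar is their mean. All points of a gene lie on 1 side of 0, as the rule for naming them requires, and the widest mean is the 0.60 of ZNF107 with JK139.

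The 3 pairs of compounds were compared directly, at doses and times not stated in the labels used here. JK139 minus JK136 called 0 members (0.0% of all genes tested), with 12 at an unadjusted p under 0.05 (4.27%, against 5.53%). JK139 minus Rhosin called 0 (0.0%), with 24 unadjusted (8.54%, against 7.42%), and JK136 minus Rhosin called 0 (0.0%), with 26 unadjusted (9.25%, against 9.09%). The smallest adjusted p of any member was that of ZNF432, which had 5.08 with JK136 and 4.29 with Rhosin in SNU601, 5.20 and 4.86 in MKN1, and 7.01 and 6.59 in AGS. JK136 was above Rhosin in each line, by 0.52 ± 0.10 with a 95% interval of 0.22 to either side (SE, limma adjusted p = 0.257). ZNF774 differed between JK136 and Rhosin by 0.50 ± 0.12, ZNF449 by -0.53 ± 0.14 and ZNF492 by -0.52 ± 0.15.

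JK139 minus Rhosin was positive in 178 of the 281 members (63.3%), against 50.5% of all genes tested, with medians of 0.04 and 0.002. The member median was 0.03 in SNU601, -0.02 in MKN1 and 0.11 in AGS, so the lines did not share 1 direction. ZNF117 differed between JK139 and Rhosin by 0.57 ± 0.19, ZNF430 by 0.53 ± 0.37, ZNF593 by -0.46 ± 0.12 and ZNF492 by -0.30 ± 0.15. JK139 minus JK136 was 0.47 ± 0.21 in ZNF626, 0.39 ± 0.14 in ZNF449, -0.48 ± 0.15 in ZNF420 and -0.30 ± 0.12 in ZNF593. A p past 0.05 does not show that the compounds act alike.

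Whether the lines differed in their response was tested by the interaction of line with any compound. It called 0 members (0.0% of all genes tested) by limma's F test, with 12 at an unadjusted p under 0.05 (4.27%, against 2.73%). The smallest p was that of ZNF202, whose mean difference from DMSO over the compounds was 0.02 in SNU601, 0.48 in MKN1 and -0.43 in AGS (limma unadjusted p = 0.000904, adjusted p = 0.9999). ZNF736, ZNF354A and ZNF780B followed with the same adjusted p. Because each line has 1 DMSO array that all 3 of its differences share, the error of that array is not in this test.

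Some members varied widely within a line. The widest range over the 4 arrays of SNU601 was that of ZNF430, with 4.81, 6.22, 4.24 and 5.51, and no compound comparison called it. In MKN1 it was ZNF544, whose 4 values are given above, and in AGS it was ZNF626, with 4.82, 3.80, 4.75 and 3.91. With 1 array for each combination, such a range cannot be told apart from the spread between cultures.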

How the data were processed

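The RNA of 12 samples was hybridised to Affymetrix Human Gene 2.0 ST arrays, 1 for each of 3 lines and 4 treatments. The deposited log2 values were made by the authors with robust multi-array average (RMA) in Affymetrix Expression Console, per the submitters' processing notes. RMA corrects background, equalises the arrays' distributions and summarises probes, which narrows low values and can hide a shift common to all genes. That the scale is log2 was read from the values (0.286 to 13.0), and the versions of these tools are not given in the sources used here.

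Of 53617 transcript clusters 16098 had a symbol in the platform annotation. Each of 14884 symbols was represented by its cluster of highest mean, and 8930 genes at or above the 40th percentile of means (4.61) were tested. Of the members, 267 had 1 cluster and 14 had several. A linear model with terms for treatment and line was fitted to the 12 arrays in limma 3.58.1 (R 4.3.3, 6 residual degrees of freedom) and Benjamini-Hochberg adjustment over all genes tested. An adjusted p under 0.05 was called, and the fit was tested on simulated data. Response differences between lines were tested by limma's F test of line with any compound. Precision is limited by the number of arrays.

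Chromosomes and gene order were taken from RefSeq (GRCh38.p14), and the array files name no build. The members and the gene lists were chosen with earlier results of these data known. By rule the text names the 6 highest and 6 lowest called log2 differences of each line comparison, the 4 (for pairs of compounds, 2) widest each way with 1 direction in all lines for treatments, the 4 smallest interaction p, the 6 highest and 6 least varying members, the widest range in each line, the members at the level of 5, and up to 4 of each role list. Exceptions are stated. Alternatives covered scaling, filters, thresholds, the prior, array weights, the design terms, every cluster on its own, and leaving out each array, line or treatment. Protein sequences of the members were not analysed here.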

Additional observations from a re-analysis of the deposited data

Results flagged for a closer look

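Among 222 groups of 4 arrays (1 line with its 4 treatments, for 73 named members and their lines), 10 had 1 array that stood far from the other 3 by Dixon's criterion, where chance gives about 1 in 20. Of these, 4 lay in SNU601, 5 in MKN1 and 1 in AGS. On JK139 arrays, ZNF107 was at 7.03 in SNU601, against 6.57 to 6.63 on the others, ZNF117 was at 5.65 in MKN1, against 5.02 to 5.12, and ZNF597 was at 4.58 in MKN1, against 4.27 to 4.32. On JK136 arrays, ZNF350 was at 5.05 in MKN1, against 4.70 to 4.75, and ZNF367 was at 5.42 in SNU601, against 5.74 to 5.75. On Rhosin arrays, ZNF207 was at 8.94 in AGS, against 9.02 to 9.03, ZNF639 was at 5.17 in MKN1, against 5.40 to 5.44, and ZNF747 was at 6.51 in SNU601, against 6.37 on the others. On DMSO arrays, ZNF202 was at 5.60 in MKN1, against 6.06 to 6.12, and ZNF597 was at 6.35 in SNU601, against 6.14 to 6.17. The low DMSO value of ZNF202 in MKN1 enters all 3 compound differences of that line, and ZNF202 had the smallest interaction p.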

How the results depend on the processing

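The counts of called members kept within 1.5 times of the reported ones under every alternative run. Members called ranged from 160 to 198 for SNU601 minus MKN1, from 127 to 162 for SNU601 minus AGS and from 171 to 202 for MKN1 minus AGS, and the lowest counts came with an adjusted p of 0.01, which calls fewer genes by construction. These ranges include the runs that left out each array or each treatment. From ZNF780A to ZNF446 on chromosome 19, 54 to 57 members were called lower in MKN1 than in AGS, a result added after the data were seen. For the 7 treatment comparisons and the interaction the count was 0 in each alternative run. The named genes, each read from its cluster of highest mean, kept their direction and their side of the threshold in all 1956 recomputed values. The naming rules made this likely beforehand. Genes of line comparisons were picked as the widest called differences. Genes of treatment comparisons had to share 1 direction in all lines, and their smallest limma adjusted p was 0.257. The count is therefore no independent measure of how firm these results are. From the second cluster, SNU601 minus AGS would be 1.51 for ZNF224 (-0.29 in the first), and for ZNF451 it would be -0.0045 (1.21 in the first), with MKN1 minus AGS at -0.36 (0.87 in the first). Scaling the arrays again moved the median of all genes by at most 0.03. The median share of variation between lines was 83.2%, and 81.1% over members with every line mean at 5 or more. The line term already pairs each compound with the DMSO array of its line, and the labels give no replicate numbers for a further block. Of the members 150 lay between 5 and 6, near the filter level of 4.61, and the spread between cultures of 1 line was not measured.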

Other observations

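On chromosome 9 the 9 members leaned to 1 side. SNU601 was called lower than MKN1 in 8 of them, with a median log2 difference of -1.01, and of the 383 other genes tested on that chromosome 216 were called lower, with a median of -0.36. ZNF462 and ZNF367, described above, are 2 of these 9 members. ZNF510 averaged 5.16 in SNU601, 6.17 in MKN1 and 6.19 in AGS. The chromosome was picked after its values were seen, and DNA copy number was not measured.

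Related zinc finger classes, told by their symbols, spread to both sides of the ZNF genes in how far they varied between lines. The range of line means reached 2-fold in 30.2% of the 281 members, in 36.4% of 11 ZFP genes, in 42.9% of 14 KLF genes, in 17.1% of 35 ZBTB genes and in 4.76% of 21 ZSCAN and ZKSCAN genes. These are descriptions of small classes and no difference between classes was tested. The median MKN1 minus AGS was -0.18 over the members, -0.17 over ZSCAN and ZKSCAN genes, 0.10 over ZBTB genes, 0.67 over ZFP genes and -0.17 over KLF genes.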
